A study of Mus musculus with 6 samples.

Results

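The actin cytoskeleton genes examined here were 43 genes for actins, tropomyosins, non-muscle myosin, calponins and transgelins, actin crosslinkers, focal adhesion proteins, LIM-domain proteins, actin monomer-binding proteins and the ezrin, radixin and moesin (ERM) membrane linkers. They were chosen as a named list of genes, with earlier results of these data known. Every probe of the array whose annotated symbol was on the list was taken. This gave 67 of 25697 probes for 38 of the 43 genes. The array carried no probe annotated to Tpm4, Myl9, Tagln2, Flna or Tgfb1i1. The cells were GIF-14, a mouse epithelial line established from fetal stomachs that lack Runx3 and p53 (Runx3-/-;p53-/-), and both groups share this genotype. As a model they are 1 immortalized line, and the epithelial fraction that had not yet undergone EMT was used. Total RNA was compared between 3 untreated cultures and 3 cultures given 2.5 ng/ml recombinant TGF-β1 for 24 h, in medium with fetal bovine serum. The methods describe the cultures as biological triplicates.

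Actin exists as monomers and as filaments, and cells move it between these states to change shape, to pull and to adhere. Non-muscle myosin slides the filaments, tropomyosins, calponins and caldesmon lie along them and set which partners may bind, and crosslinkers such as α-actinin tie them into bundles. Stress fibers end at focal adhesions, where talin, vinculin, paxillin and zyxin link them to integrins. Many of these genes are targets of serum response factor (SRF), which binds a DNA element called the CArG box and is switched on when free actin monomers are used up. During EMT, epithelial cells are known to replace the actin belt and microvilli at their apical side with stress fibers.

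Each array value is the averaged brightness of the beads that carry one probe, with a detection p against the negative control beads beside it. Tests were limited to probes above background (detection p below 0.05) in all 3 replicates of the untreated or of the TGF-β1 group, which held for 49 of the 67 probes and for 33 of the 38 genes with a probe. Values are log2 of the quantile-normalized signal, and each gene is represented by its brightest tested probe. Because probes differ in how well they bind, their levels are not compared between genes. Over the 6 arrays the mean signal before normalization was 406 to 519, and 11381 to 11797 probes were above background. The number of arrays limits the precision. The probe of the deleted Runx3 was at background on all 6 arrays. Of the 16 probes of an epithelial marker list, 15 were above background on all 6, among them those of all 10 tested genes. The other, for Esrp1, was above background on only 1 untreated array and was not tested. Of probes for other cell types, 9 of 10 immune, 5 of 7 endothelial and 11 of 12 fibroblast probes were at background throughout, and the endothelial gene Pecam1 fell at the edge of detection, a call lost without untreated replicate 2.

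Of the 33 genes tested, TGF-β1 raised 14 and lowered 5 (limma, adjusted p below 0.05), and 14 did not pass. The largest increases were those of Lmcd1, Msn, Acta2, Zyx, Actn1 and Pdlim7, and the largest decreases those of Fhl1, Lima1 and Ezr. Of all 7725 genes tested, 16.4% rose and 17.8% fell by the same calls, against 42.4% and 15.2% of the member genes. Of the 31 member genes above background on all 6 arrays, 13 rose and 5 fell, where 16.6% and 16.5% of all such genes did. The median log2 change was 0.30 over the member genes and 0.03 over all genes tested. Because the list was chosen with earlier results known, the comparisons with all genes are descriptions and were not tested. By probe, 16 of the 49 rose and 9 fell, where 32.3% of all 11189 tested probes passed, 16.4% upward and 15.9% downward. Changes that passed and reached 2-fold were seen in 6 member genes (18.2%) and in 6.15% of all genes. Of these 6, Lmcd1, Msn, Acta2 and Zyx rose, as 2.15% of all genes did by this size, and Fhl1 and Lima1 fell. In 15 of the 33 genes all TGF-β1 arrays lay above all untreated arrays, which held for 24.6% of all genes tested. In 6 they lay below, and in 12 the groups overlapped, where 48.2% of all genes tested had no overlap in either direction. Without untreated replicate 3 the number of genes that fell was 8.

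**Figure D1:**
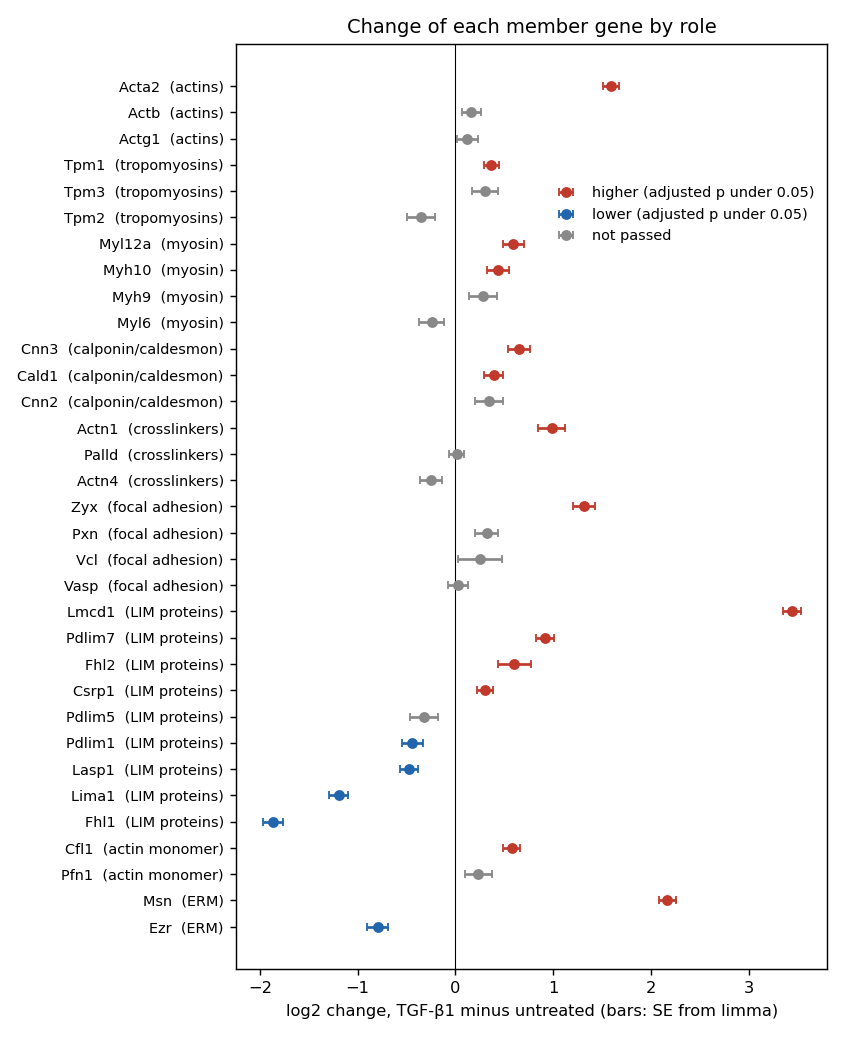
Log2 change (TGF-β1 minus untreated, with the SE from limma as bars) of the 33 tested genes, grouped by role. Red points rose, blue points fell and gray points did not pass. Only the LIM proteins and the ERM linkers hold both red and blue points.

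Because several of these genes are known SRF targets, the promoters were searched for the CArG box (CC, then 6 letters that are each A or T, then GG), in RefSeq windows of GRCm38.p6 from 250 bases before to 50 bases after each start. Windows were matched for 39 of the 43 genes and were missing for Actb, Tagln, Pxn and Tgfb1i1. The box was present in 9 of the 39 genes (23.1%) and in 1.81% of all 27025 genes with a window, whether or not the arrays tested them. Because the list includes known SRF targets, a higher share can follow from its choice. No array value enters these shares, so they say nothing about TGF-β1. The genes that hold it did not share a direction. The box was found in 2 of the 14 genes that rose, in 2 of the 5 that fell, and in 4 of the 12 matched genes that did not pass. Only this exact pattern was counted, so a box with a differing letter, or outside the window, was missed. A gene without a match, such as Acta2, may therefore still hold such a box. The following stretches of at most 25 bases on each side show the box in capitals in both rising genes, in both falling genes and in 2 genes that did not pass, all read 5′ to 3′ along the strand of the gene.
Lmcd1, rose, chr6:112273518-112273577, plus strand: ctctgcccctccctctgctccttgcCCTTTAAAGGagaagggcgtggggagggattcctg
Fhl2, rose, chr1:43163962-43164017, minus strand: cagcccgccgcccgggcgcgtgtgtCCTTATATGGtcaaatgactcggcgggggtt
Fhl1, fell, chrX:56779556-56779615, plus strand: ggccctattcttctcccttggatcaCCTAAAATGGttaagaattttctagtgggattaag
Lima1, fell, chr15:99820162-99820221, minus strand: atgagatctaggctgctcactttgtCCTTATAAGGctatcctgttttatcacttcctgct
Cnn2, did not pass, chr10:79988519-79988578, plus strand: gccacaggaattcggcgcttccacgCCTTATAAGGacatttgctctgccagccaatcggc
Vcl, did not pass, chr14:20929148-20929205, plus strand: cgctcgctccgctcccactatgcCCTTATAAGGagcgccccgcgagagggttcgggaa
The same 10 letters, CCTTATAAGG, stand in the stretch of Lima1, which fell, and in those of Cnn2 and Vcl, which did not pass. Of the genes not shown, Myl6, which did not pass, holds CCTTATATGG, the letters shown for Fhl2, which rose. Actg1, which did not pass either, holds CCATATATGG. Fhl2 holds a second box at another start. In the same windows, on either strand, the TEAD motif GGAATG was found in 12 member genes (30.8%) and 16.6% of all genes, and the AP-1 motif TGANTCA in 7 (17.9%) and 8.97%. The TEAD motif was in 5 of the 14 genes that rose, 0 of the 5 that fell and 4 of the 12 that did not pass. The AP-1 motif was in 3, 1 and 2 of these. The Smad palindrome GTCTAGAC was in 0 member genes and in 0.248% of all. A match in these windows is a description of the letters and was not tested as a binding site.

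Among the actins, the smooth muscle actin gene Acta2 rose and the cytoplasmic actins did not pass. The brightest Acta2 probe read 6.53, 6.62 and 6.60 untreated and 8.19, 8.25 and 8.08 after TGF-β1. None of the untreated arrays detected it, all treated arrays did, and the groups did not overlap. The group means differed by at least 2.92-fold (measured means 6.58 and 8.17, adjusted p = 3.90e-06 from limma). The measured log2 change was 1.59, with a 95% interval from 1.40 to 1.78. The bound of 2.92-fold replaces each untreated value by the dimmest signal that the array still detected, where that was higher. It does not include the spread between arrays. This probe could pass the filter only through the treated arrays. The 3 other Acta2 probes, which are annotated to the same transcript, lay near background. Of these, 2 were tested, with log2 changes of 0.24 (adjusted p = 0.148) and 0.04 (adjusted p = 0.771), and the third was not above background on any array. The mean of the 3 tested probes changed by 0.62 (adjusted p = 0.000426 from limma).

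Actb, the cytoplasmic β-actin often used as a reference gene, read 14.07, 14.30 and 14.26 in untreated cells and 14.45, 14.40 and 14.28 after TGF-β1. The groups overlapped, with untreated replicate 1 the lowest. The log2 change was 0.16, with a 95% interval from -0.06 to 0.39 (adjusted p = 0.237). Its 2 dimmer tested probes changed by 0.29 and 0.35 and did not pass either, and 2 further Actb probes were not above background on any array. The only Actg1 probe, for cytoplasmic γ-actin, read 6.58, 6.83 and 6.63 untreated and 6.76, 6.70 and 6.96 after TGF-β1. This is at the edge of detection, with 1 of 3 untreated arrays above background, and the change of 0.12 did not pass (adjusted p = 0.422). The Actb probes at background show that a low probe signal need not mean a low level of the gene. The level of Actg1 is therefore not known from this probe.

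**Figure D2:**
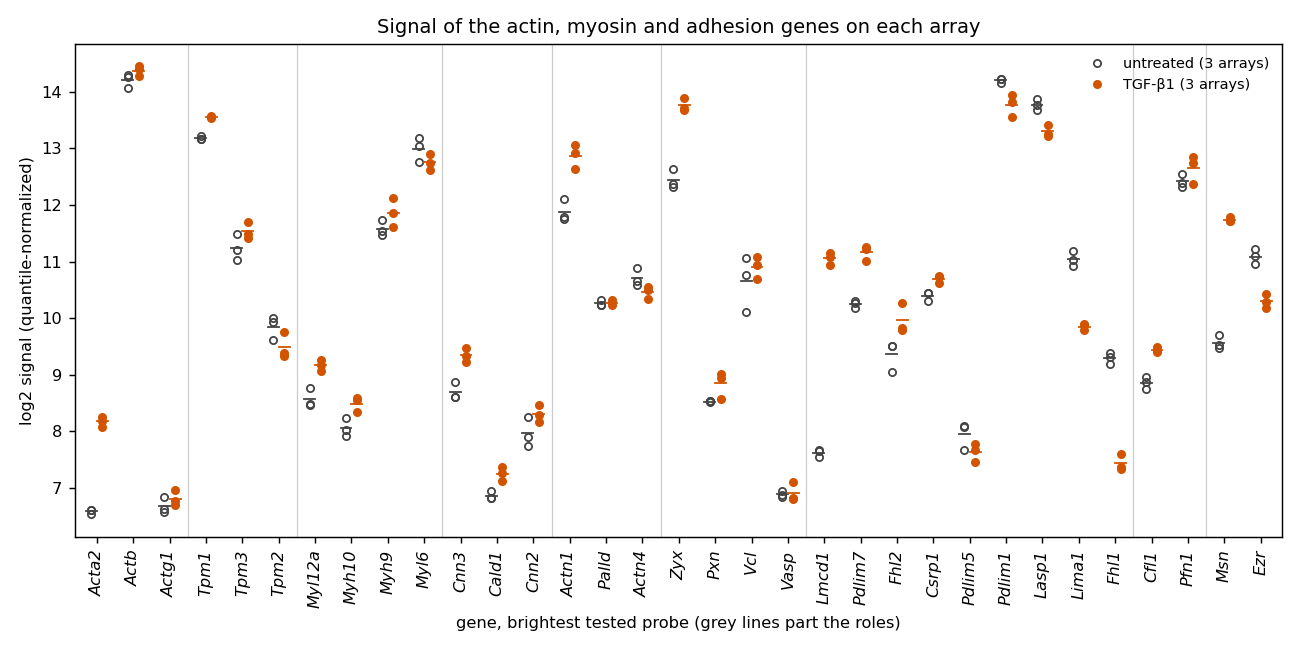
Log2 signal of the brightest tested probe of each gene on the 3 untreated arrays (open gray circles) and the 3 TGF-β1 arrays (filled orange circles), with short lines at the group means. The Lmcd1 circles lie at 7.54 to 7.67 untreated and 10.94 to 11.15 after TGF-β1, while those of Actb and Palld overlap.

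Of the tropomyosins, which coil along the filament, Tpm1 rose by a small and tightly measured amount. Its signal was 13.22, 13.17 and 13.17 untreated and 13.57, 13.55 and 13.54 after TGF-β1, a log2 change of 0.37 (SE 0.076, adjusted p = 0.00685 from limma). Tpm3 changed by 0.30 (adjusted p = 0.129) and Tpm2 by -0.35 (adjusted p = 0.101), and neither passed. Their calls rested on single arrays. Tpm2 passed downward without untreated replicate 3 (adjusted p = 0.0276) or TGF-β1 replicate 3 (0.0328), and Tpm3 passed upward without untreated replicate 2 (0.0458). The other 2 Tpm2 probes were at background on all 6 arrays, and the other 3 Tpm3 probes on all but 1 array of 1 probe.

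Non-muscle myosin is built of heavy chains with a regulatory and an essential light chain. The regulatory light chain gene Myl12a rose by a log2 change of 0.59 (SE 0.11, adjusted p = 0.00357 from limma). Myh10, the heavy chain of myosin IIB, rose by 0.44 (adjusted p = 0.0194), a call that was lost on leaving out untreated replicate 1 (0.0739) or 2 (0.0688), or replicate 1 (0.0619) or 2 (0.0789) of the treated arrays. Myh9, the heavy chain of myosin IIA, changed by 0.28 (95% interval -0.04 to 0.60, adjusted p = 0.162). The essential light chain gene Myl6 changed by -0.24 (adjusted p = 0.187) and passed downward without untreated replicate 3 (0.0335). Both probes of Mylk, the kinase of the regulatory light chain, were at background on all 6 arrays.

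The smooth muscle forms of the filament-binding proteins were not seen, while their widely expressed relatives were. Tagln (transgelin) read 6.44, 6.44 and 6.33 untreated and 6.27, 6.23 and 6.24 after TGF-β1, and Cnn1 (calponin 1) lay between 6.18 and 6.46 on the 6 arrays. Each has 1 probe, and neither was above background on any array, so a change was not detectable. Cnn3, the non-muscle calponin, rose by 0.65 (SE 0.11, adjusted p = 0.00258 from limma). Cald1, the gene of caldesmon, rose by 0.39 (adjusted p = 0.0140), a call that either replicate 2, untreated (0.0582) or treated (0.0578), ended when left out. Its other probe was above background on 2 TGF-β1 arrays and no untreated array. Cnn2 changed by 0.34 (adjusted p = 0.104) and passed without untreated replicate 1 (0.0256).

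These smooth muscle genes stood beside a list of 14 muscle lineage markers, 13 of which had a probe. Of its 19 probes, 14 were at background on all 6 arrays, among them those of Myh11, Actg2, Actc1, Acta1, Lmod1, Synpo2 and Myocd. The summed signal of the list was 1938 to 2123 untreated and 3405 to 3614 after TGF-β1, and without the 3 Smtn probes it was 1302 to 1354 and 1279 to 1330. This remainder comes mostly from probes at background, where a change was not detectable. Smtn, which encodes the actin-binding protein smoothelin, rose by 1.78 (SE 0.12, adjusted p = 1.39e-05 from limma) on the brightest of 3 probes. Des (desmin) changed by -0.24 (adjusted p = 0.154). In a culture, fewer cells of a kind and less RNA per cell cannot be told apart.

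Of the crosslinkers, Actn1 rose, and Actn4 and Palld did not pass. Actn1, the gene of α-actinin-1 in stress fibers and adhesions, read 12.11, 11.79 and 11.75 untreated and 12.91, 12.64 and 13.06 after TGF-β1. The lowest treated array lay above the highest untreated array. The log2 change was 0.99, or 1.98-fold (SE 0.14, adjusted p = 0.000964 from limma). Actn4, the gene of α-actinin-4, changed by -0.25 on its brightest probe (95% interval -0.50 to 0.0003, adjusted p = 0.118), by -0.35 on the second (adjusted p = 0.0578) and by 0.01 on the third. Palld (palladin) changed by 0.01 (95% interval -0.17 to 0.19, adjusted p = 0.925), and this sign turned without untreated replicate 2 (-0.0036) or TGF-β1 replicate 2 (-0.010).

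At the focal adhesion, Zyx rose and the other tested core genes did not pass. Zyx encodes zyxin, which is recruited to adhesions and stress fibers under tension. Its signal was 12.38, 12.32 and 12.63 untreated and 13.88, 13.72 and 13.68 after TGF-β1, with no overlap, which is a 2.49-fold increase (log2 change 1.32, SE 0.11, adjusted p = 4.83e-05 from limma). Vcl, the gene of vinculin, read 11.06, 10.77 and 10.11 untreated and 10.70, 10.93 and 11.07 after TGF-β1. The untreated arrays spread more widely than the groups differed (log2 change 0.25, 95% interval -0.26 to 0.76, adjusted p = 0.432), and the change was -0.015 without untreated replicate 3.

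The adapter gene Pxn (paxillin) read 8.53, 8.53 and 8.51 untreated and 9.02, 8.94 and 8.58 after TGF-β1. All treated arrays lay above all untreated ones, with TGF-β1 replicate 3 close to them. The change of 0.32 did not pass (adjusted p = 0.0767), and passed without that array (0.00969). The second Pxn probe, near background, changed by 0.08 (adjusted p = 0.675), and the third was at background on all 6 arrays. Vasp, which promotes filament elongation, changed by 0.02 (95% interval -0.21 to 0.26, adjusted p = 0.894), and its sign was negative on leaving out untreated replicate 2 (-0.0032) or treated replicate 1 (-0.076). The only Tln1 probe, for talin, was above background on 2 of 3 arrays of each group and was not tested.

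LIM domains are zinc-binding folds that dock proteins to one another, and many LIM proteins sit on stress fibers and adhesions or shuttle to the nucleus. Of the 9 genes grouped here as LIM and PDZ-LIM proteins, all tested, 4 rose, 4 fell and 1 did not pass, with a median log2 change of -0.32. These counts are 44.4% in each direction, where 16.4% of all genes tested rose and 17.8% fell. Zyx and Pxn, described above at the focal adhesion, also carry LIM domains, and with them 5 of 11 rose, 4 fell and 2 did not pass, with a median of 0.30. Lmcd1, a LIM and cysteine-rich domain protein known as a transcriptional cofactor, read 7.54, 7.64 and 7.67 untreated and 11.09, 10.94 and 11.15 after TGF-β1. This was a 10.9-fold increase (log2 change 3.44, SE 0.091, adjusted p = 1.97e-07 from limma), at place 4 of 7725 genes ordered by log2 change. Its other 2 probes were also above background on all arrays and changed by 3.13 and 2.62 (adjusted p = 5.07e-07 and 6.07e-07). The change was smaller on the dimmer probes.

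Pdlim7, the gene of enigma, a PDZ and LIM protein of actin bundles, rose from 10.27, 10.17 and 10.30 to 11.26, 11.23 and 11.01. The log2 change was 0.92 (SE 0.096, adjusted p = 0.000185 from limma) and the groups did not overlap. Fhl2, a LIM-only cofactor, rose by 0.60 (adjusted p = 0.0254), but did not pass without TGF-β1 replicate 3 (0.0671). Csrp1, a cysteine- and glycine-rich LIM protein that binds α-actinin, rose by 0.30 (adjusted p = 0.0258), and that call ended without replicate 1 (0.100) or 2 (0.0619) of the untreated arrays and without replicate 1 (0.0854) or 3 (0.0643) of the treated arrays.

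Fhl1, the relative of Fhl2, moved the other way and had the largest decrease of the list. It read 9.19, 9.38 and 9.31 untreated and 7.60, 7.36 and 7.33 after TGF-β1, a 3.64-fold decrease (log2 change -1.86, SE 0.10, adjusted p = 4.71e-06 from limma). Its second probe gave -1.67 (adjusted p = 5.64e-06). Lima1 encodes EPLIN, which stabilizes filaments and links the cadherin complex to actin. It fell from 11.03, 11.19 and 10.92 to 9.78, 9.88 and 9.90, without overlap (log2 change -1.19, SE 0.095, adjusted p = 3.73e-05), and its second probe by 1.07 (adjusted p = 0.0102).

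Lasp1, a LIM and SH3 protein, fell by 0.47 and by 0.48 on its 2 brighter probes (adjusted p = 0.00576 and 0.00227 from limma), while the dimmest changed by -0.28 (adjusted p = 0.177). Pdlim1 fell by 0.44 (adjusted p = 0.0169), and the call ended on leaving out untreated replicate 1 (0.0547) or treated replicate 2 (0.0501). Pdlim5, which binds α-actinin, was the LIM gene that did not pass on its brightest probe. That probe changed by -0.32 (adjusted p = 0.117), the second by -0.29 (adjusted p = 0.0590) and the third by -0.38 (adjusted p = 0.0154). The brightest passed without untreated replicate 3 (0.0136), and the mean of the 3 tested probes also passed (adjusted p = 0.00671).

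**Figure D3:**
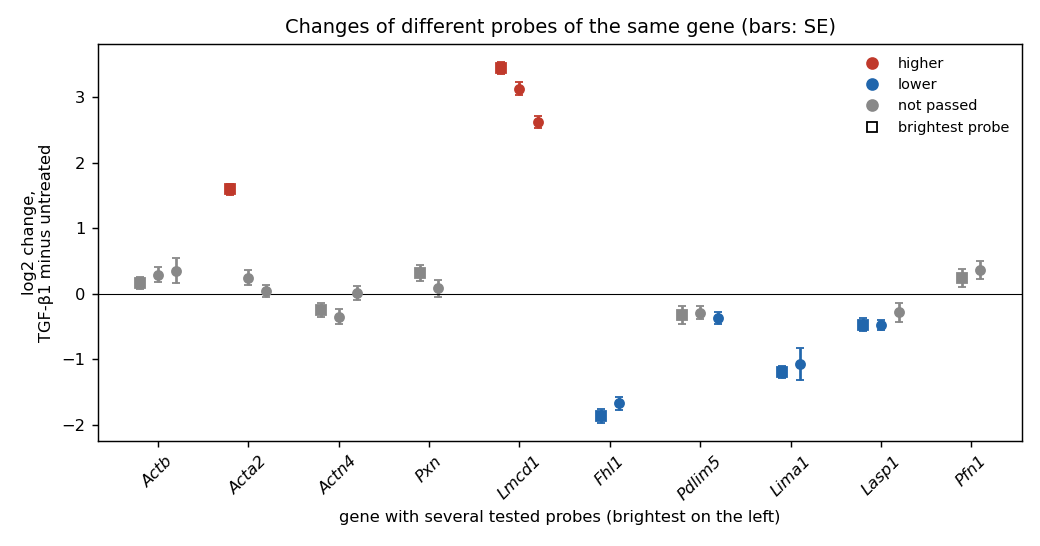
Log2 change with SE of every tested probe for the 10 genes with several tested probes, brightest probe first (square). The probes of Lmcd1 (3.44, 3.13 and 2.62), Fhl1 and Lima1 passed together, while in Acta2, Pdlim5 and Lasp1 the calls of the probes differed.

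Cfl1 (cofilin, which severs filaments) and Pfn1 (profilin, which feeds monomers to growing ends) bind actin monomers. Cfl1 rose by 0.58 (SE 0.088, adjusted p = 0.00152 from limma). Both probes of Pfn1 had positive changes, 0.24 (adjusted p = 0.217) and 0.36 (adjusted p = 0.0796), and did not pass.

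The ERM proteins tether actin to the plasma membrane. Ezrin is the main form in epithelial microvilli, and moesin prevails in other cell types. Msn, the gene of moesin, read 9.52, 9.48 and 9.71 untreated and 11.79, 11.71 and 11.71 after TGF-β1, a 4.50-fold increase (log2 change 2.17, SE 0.091, adjusted p = 1.25e-06 from limma). Ezr, whose arrays are given because its direction was seen to differ, read 11.22, 11.09 and 10.96 untreated and 10.29, 10.17 and 10.42 after TGF-β1. Neither gene had overlapping groups, and Ezr fell by 0.79 (SE 0.10, adjusted p = 0.000686). Rdx (radixin) was not above background on any array, with values of 6.04 to 6.53.

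Markers of epithelial cells moved beside these genes. Of the 10 tested genes of the epithelial list, 5 fell and 1 rose, where 17.8% of all genes fell and 16.4% rose. The summed signal of its 16 probes was 44466 to 47897 untreated and 35115 to 40846 after TGF-β1. Without Krt19, left out because its signal differed most between the groups, it was 31001 to 35878 and 31085 to 36735, which overlap. A sum follows its brightest probes, such as that of Krt8 (mean log2 signal 14.13 untreated and 14.05 after TGF-β1). Such a sum hardly registers dimmer genes that fell, such as Elf3 and Ocln. Krt19 (-1.59), Elf3 (-1.23) and Ocln (-0.60) fell, and the gene that rose was Krt18 (0.47, adjusted p = 0.0137 from limma). The E-cadherin gene Cdh1 changed by -0.02 (adjusted p = 0.966). Of the fibroblast list Col1a1 was above background only after TGF-β1. Its group means differed by at least 2.13-fold by the bound used for Acta2 (log2 change 1.16, 95% interval 0.94 to 1.39). The summed signal of the list was 907 to 944 untreated and 1016 to 1064 treated. Without Col1a1 the fibroblast sum was 819 to 845 and 823 to 835. The other 11 fibroblast probes were at background on all 6 arrays, so this sum could not show a change. The part of these markers in the changes above was not tested.

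**Figure D4:**
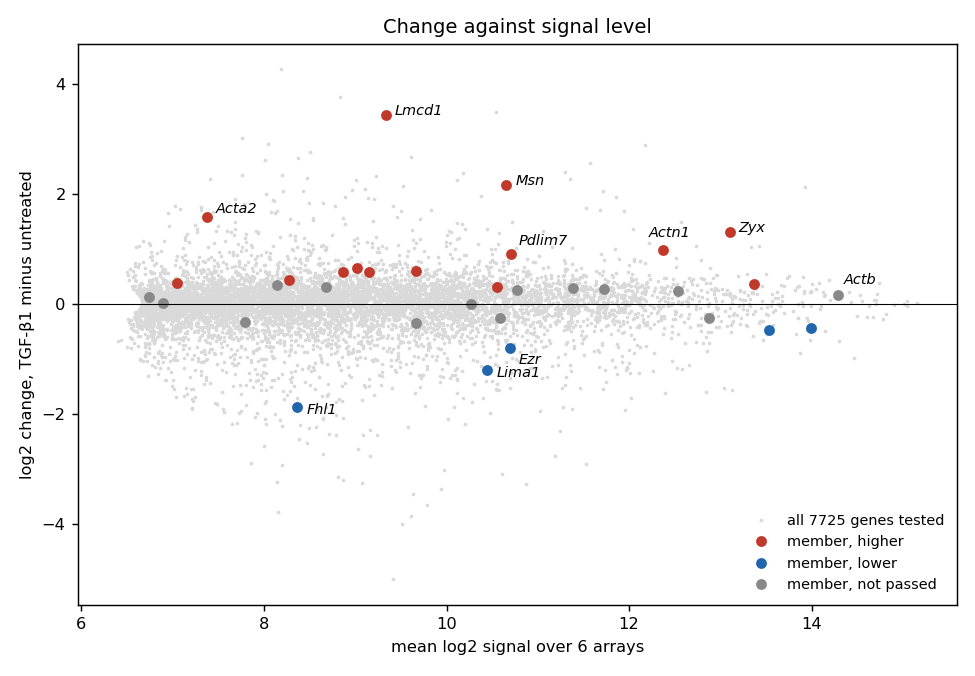
Log2 change against the mean log2 signal over 6 arrays for all 7725 genes tested (light gray) and the 33 member genes (red rose, blue fell, dark gray did not pass). The probes of the member genes span nearly the whole range of signal, from that of Actg1 at the edge of detection to that of Actb. Lmcd1 lies at place 4 from the top.

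Other genes of the same machinery were described with 3 further lists that share no member. Of 19 further focal adhesion genes, 5 rose and 3 fell (42.1%, where 34.2% of all genes tested passed). The largest changes were those of Fblim1 (0.95), which encodes migfilin, Fermt2 (0.91), which encodes the integrin activator kindlin-2, and Pdlim4 (-0.87), all past the threshold of limma. Ilk, the integrin-linked kinase gene, changed by 0.18 (adjusted p = 0.158). Of 30 genes of actin assembly and bundling, 2 rose (6.67%, against 16.4% of all genes) and 7 fell (23.3%, against 17.8%), and the 30% that passed lay near the 34.2% of all genes. Vil1, the gene of the microvillus protein villin, fell by 1.39 (adjusted p = 1.15e-05) and Anln, which encodes anillin of the cleavage furrow, by 0.81 (adjusted p = 0.000407). Dstn (destrin), a relative of cofilin, fell by 0.68 (adjusted p = 0.0337), a call that leaving out replicate 1 or 2 of either group ended (adjusted p up to 0.115). Tmsb4x, the gene of the monomer-sequestering thymosin β4, changed by -0.22 (adjusted p = 0.261).

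Of 9 other myosins tested, 3 rose (33.3%, against 16.4% of all genes) and 1 fell (11.1%, against 17.8%). Myo10, a motor of filopodia, rose by 1.47 (SE 0.10, adjusted p = 1.50e-05 from limma), Myo7a by 0.94 (adjusted p = 0.00102) and Myo9b by 0.47. Myl12b, the close relative of Myl12a, changed by -0.22 (adjusted p = 0.435). These 2 genes have similar sequences, so their probes may share transcripts, and the same holds for the actin genes.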

How the data were processed

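Total RNA of GIF-14 cells was hybridized by the authors to Illumina MouseRef-8 BeadChips after biotin labeling. The authors processed the arrays in GenomeStudio. One deposited table holds bead intensity before normalization, with no background subtracted, and a detection p-value for every probe and array. A further deposited table holds the authors' quantile-normalized intensity, which is not on the log2 scale that the methods name.

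Here, signal intensities were quantile-normalized and log2-transformed in limma 3.58.1 (R 4.3.3). Of 25697 probes, 11189 were tested with lmFit and eBayes over the 6 arrays, and p-values were adjusted by Benjamini and Hochberg over all of them (threshold 0.05). The study's SAM test was not run. With 3 arrays in each group, 0.1 is the smallest p of an exact permutation test (two-sided). Probes were named by the platform annotation, and the gene ID of all 67 member probes was that of their symbol in GRCm38.p6. The members and lists were chosen with earlier results of these data known, so no p is adjusted over a list. Array values are printed for members past the threshold with an absolute log2 change of at least 0.8 and for the actins, and of the other lists up to 3 genes that passed, by size, and 1 that did not. Ezr, Tpm1, Vcl, Pxn, Tagln and the marker genes were added after their values were seen. The test was also run on simulated data with noise drawn independently for each probe and array. Deviations shared by many probes of an array were not part of it, so it cannot show how they affect the calls. A further list of related genes is not reported here.

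The alternatives were another scaling, neqc background correction, the authors' values, other detection filters, the replicate number as a block, another prior, other ways of joining probes, a 1.5-fold minimum and leaving out each array, with the normalization redone and the same probes tested. A covariate for the arrays' mean signal was chosen after seeing the data.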

Additional observations from a re-analysis of the deposited data

How the results depend on the processing

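Of the 19 genes that rose or fell, 11 passed in the same direction under each of the 17 alternatives that tested them (Acta2 has no value under the stricter detection filter), and none turned. The size of a change depended on the processing more in some genes than in others. Over the alternatives the log2 change was 3.06 to 3.95 for Lmcd1 and 2.12 to 2.27 for Msn. It was -2.36 to -1.77 for Fhl1 and 0.62 to 2.69 for Acta2. Required in addition, a 1.5-fold change left 9 genes higher and 3 lower, 1489 of all tested probes and 11 of the 21 genes called in the 3 other cytoskeleton lists. The median log2 change of the member genes was 0.27 with scaling to one mean signal, 0.24 with no detection filter, which adds genes at background, and 0.34 with a covariate for the arrays' mean signal. With this covariate 5161 of all 11189 probes passed, where 3611 did without it, and 18 member genes were higher and 6 lower, with Tpm3, Myh9, Cnn2, Vcl and Actn4 added, and the changes of Palld (-0.0015) and Vasp (-0.025), which did not pass, turned negative. The cause was not tested. With 1 array left out, 12 to 14 genes were higher and 4 to 8 lower, the median was 0.23 to 0.34, and 2605 to 3895 of all probes passed. In the same fits the log2 change was -0.010 to 0.040 for Palld, -0.015 to 0.46 for Vcl and -0.076 to 0.073 for Vasp.

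Whether same-numbered cultures were paired is not given by the labels, and correlations over 3 arrays in each group cannot decide it. Deviations from the group means of same-numbered arrays correlated with r of -0.67, 0.07 and -0.78 for replicates 1, 2 and 3, and only TGF-β1 replicate 2 correlated best with its own number. With the replicate block, 2097 of all probes passed, and 9 member genes were higher and 4 lower. Of the genes named as changed, Tpm1, Myh10, Cald1, Fhl2, Csrp1, Pdlim1, Myo9b, Dstn and Pecam1 did not pass with it. Probes with low signal, such as those of Actg1, Tagln and Rdx, lie where a change was not detectable or is understated.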
